A study of Homo sapiens with 3 samples.

Results

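Among 9 targets of the tumour suppressor p53 in EBC-1 cells with RAB11A knocked down, GDF15 was far lower than in control cells, TP53INP1 was lower by less, and MDM2 stayed within counting error of its control level. The 9 genes were GDF15, CDKN1A, MDM2, ZMAT3, XPC, TP53INP1, SESN1, TP53I3 and FAS, found by exact gene symbol among 13479 listed genes, and all 9 were present. The set was selected on earlier results from these same libraries, with the CPM values and ratios to control of its members in view, so their values are a description and no test is given on them. EBC-1 is an established cell line from a human squamous cell carcinoma of the lung. The groups were cells electroporated with RAB11A siRNA 1, with RAB11A siRNA 2, or with a negative control siRNA, at 600 pmol each and with a time of 72 h after plating given for all, and each group was 1 library. The assay was CAGE, cap analysis of gene expression, in which tags are read from the capped 5′ ends of transcripts. No replicate culture was analysed, so every interval and standard error below covers counting error only and no p-value is given for a difference between conditions.

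p53 is a transcription factor that is held at low levels by the ubiquitin ligase MDM2 and accumulates after DNA damage and other stresses. It then induces genes that arrest the cell cycle, repair DNA, limit growth signalling or start cell death, and MDM2 itself, which closes a negative feedback loop. Several p53 targets also have other inducers. GDF15, a secreted cytokine of the TGF-beta superfamily, and SESN2 are induced by the transcription factors ATF4 and DDIT3 (CHOP) of the integrated stress response.

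The siRNA sequences, shown because they define both knockdown groups, are as the labels give them, 5′ to 3′.
RAB11A siRNA 1: gcauccagguugauggaaa
RAB11A siRNA 2: agcaagagcuuuugcagaa
RAB11A, the small GTPase of recycling endosomes that they target, stood at 7.48 CPM with siRNA 1, 22.7 CPM with siRNA 2 and 135 CPM with control siRNA.

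CAGE counts transcript starts, so the promoters of the targets are shown where they hold sequence like a p53 site. A p53 site is made of 2 copies of a half-site of 10 bases, and the full site of 20 bases without a spacer was searched with up to 3 mismatches. RefSeq promoters (build GRCh38.p14, 250 bases before to 50 after a gene start) were given for 8 of the 9 genes, in 16 entries. A full site within 3 mismatches lay in 6 of the 16 entries, 2 of them overlapping MDM2 windows that hold the same site, where 5.20% of 35116 promoters of the same length held one. These entries belong to 5 of the 8 genes. In the following promoters the capitals mark that site and, in GDF15, also the motif TATAAA.
GDF15 promoter, chr19:18385908-18386207, plus strand: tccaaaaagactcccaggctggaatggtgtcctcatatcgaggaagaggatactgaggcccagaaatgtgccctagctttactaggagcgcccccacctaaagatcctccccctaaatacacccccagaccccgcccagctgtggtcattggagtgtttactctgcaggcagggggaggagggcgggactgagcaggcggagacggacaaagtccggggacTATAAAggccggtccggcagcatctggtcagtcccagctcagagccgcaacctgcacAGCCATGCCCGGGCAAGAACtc
XPC promoter, chr3:14178552-14178851, minus strand: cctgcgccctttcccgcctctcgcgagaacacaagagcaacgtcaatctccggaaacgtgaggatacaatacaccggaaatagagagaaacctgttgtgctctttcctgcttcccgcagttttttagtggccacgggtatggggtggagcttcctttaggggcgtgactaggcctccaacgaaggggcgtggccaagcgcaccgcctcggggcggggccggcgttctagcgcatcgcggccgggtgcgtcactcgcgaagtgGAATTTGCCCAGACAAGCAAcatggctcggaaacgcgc
MDM2 promoter, internal start, chr12:68808767-68809066, plus strand: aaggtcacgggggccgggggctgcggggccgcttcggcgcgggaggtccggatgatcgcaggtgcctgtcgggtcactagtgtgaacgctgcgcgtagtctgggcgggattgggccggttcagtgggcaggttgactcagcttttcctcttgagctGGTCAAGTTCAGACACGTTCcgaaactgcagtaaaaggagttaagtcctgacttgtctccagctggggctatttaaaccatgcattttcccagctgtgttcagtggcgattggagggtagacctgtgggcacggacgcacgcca
Counted from the gene start as base 1, the GDF15 site (3 mismatches) began at base 29 and the XPC site (3 mismatches) at base 13, while the MDM2 site (2 mismatches) began at base -94, upstream of its start. The MDM2 entry belongs to the internal start known to answer to p53, and the upstream MDM2 start had a best match with 5 mismatches. For the remaining matches only the site itself is shown, with capitals for bases that fit the consensus.
SESN1 site, chr6:109009018-109009037, minus strand: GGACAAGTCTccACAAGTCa
FAS site, chr10:88991309-88991328, plus strand: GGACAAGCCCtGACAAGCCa
The SESN1 site had 3 mismatches and the FAS site 2, and both lay in entries for internal starts. SESN1 and FAS were also the 2 genes with an exact half-site, in 2 of the 16 entries, and 6.63% of all promoters held one. The best matches in ZMAT3, CDKN1A and TP53I3 had 4, 5 and 5 mismatches, and p53 sites farther than these windows, such as the known distal sites of CDKN1A, were not searched. TATAAA, found in 11.5% of promoters on either strand, was present in GDF15 alone of the 8 genes. The motifs TGATGNAAN, a composite of C/EBP and ATF sites, and TGACGTCA, the cAMP response element, were found on neither strand of any of the 16 entries, against 3.61% and 1.85% of promoters. All these matches are descriptions of letters in a window and say nothing of binding.

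The deposited values were CPM, tag counts scaled to a common library total. One tag equalled 0.04 CPM in each library, and a CAGE tag marks a transcript start, so levels of different genes are not divided by length. Ratios below are log2 ratios of (CPM + 1), compared over the 10788 genes that averaged 5 CPM (125 tags) or more, and a gene was called when it was at least 1.5-fold apart on that scale. Of the 9 targets, 7 passed this filter, and SESN1 and FAS did not. With siRNA 1, 2 of the 7 were called lower than control, where 2.56% of all genes were, and none was called higher, where 2.81% were. With siRNA 2, 3 of the 7 were called lower, against 1.85% of all genes, and none higher, against 1.24%. With both siRNAs together, none was called higher, against 0.825% of all genes. The choice of the genes used these contrasts, so nothing is read from the counts. With siRNA 2 the calls over all genes were 134 higher and 200 lower, and they were 172 and 161 under TMM scaling.

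**Figure D1:**
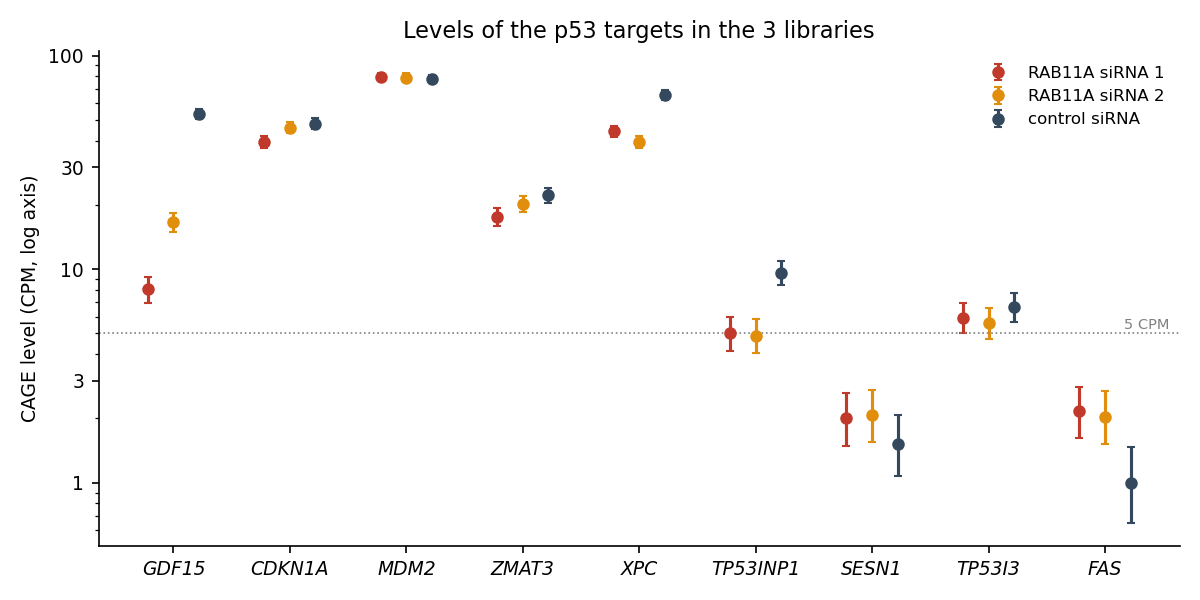
CAGE level of each p53 target in CPM on a log axis, with RAB11A siRNA 1, RAB11A siRNA 2 and control siRNA from left to right (1 library each). Bars are 95% exact Poisson intervals, and the dotted line is the minimum mean of 5 CPM. GDF15 is the gene whose 3 libraries lie farthest apart, and MDM2 lies at the same height in all 3.

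GDF15 (ENSG00000130513, chr19:18485541-18499986, plus strand, GRCh37/hg19) is the secreted member of the group, a stress cytokine of the TGF-beta superfamily. The siRNA 1 library held 201 GDF15 tags, or 8.04 CPM (95% Poisson interval 6.97 to 9.23). The siRNA 2 library held 414 tags, or 16.6 CPM (15.00 to 18.2), and the control library 1330 tags, or 53.2 CPM (50.4 to 56.1). The 3 intervals did not overlap, and the level was lowest with siRNA 1 and highest in the control. Relative to control, 15.1% was left with siRNA 1 (95% exact interval of the ratio 13.0% to 17.5%), while siRNA 2 left 31.1% (27.8% to 34.8%). These are log2 ratios of -2.58 and -1.63 (counting standard errors 0.098 and 0.077), the 10th and 14th lowest of the 10788 genes. In order of level among all 13479 genes, GDF15 was at place 9706 with siRNA 1, at 7512 with siRNA 2 and at 3662 with control siRNA. In RNA from a whole culture, fewer cells that express a gene and less RNA per cell cannot be told apart.

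Of the 7 targets that passed the filter, GDF15 alone was called apart between the knockdown libraries. This comparison does not use the control library, but the genes were chosen with their CPM values in view, so it is no separate support. The GDF15 ratio of siRNA 1 to siRNA 2 was -0.96 (counting standard error 0.113), and 0.695% of genes were called lower in that direction. The siRNA 1 level was 48.6% of the siRNA 2 level (40.8% to 57.6%). RAB11A itself was also lower with siRNA 1 than with siRNA 2, with a ratio of -1.48. With 1 library for each siRNA, the siRNA and the culture cannot be told apart.

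The table also lists MIR3189, the gene of microRNA 3189, at chr19:18497372-18497444 (GRCh37) on the plus strand. It lies inside 3 of the 5 annotated GDF15 transcripts, the canonical one included, and overlaps no exon of them. Its CPM was identical to that of GDF15 in all 3 libraries, so it is the same measurement listed again and gives no level of the mature microRNA. Both mature forms are shown because the entry carries their name, with the seed (bases 2 to 8) in capitals, from RefSeq.
hsa-miR-3189-5p: uGCCCCAUcugugcccuggguagga
hsa-miR-3189-3p: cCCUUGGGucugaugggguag
Their seeds differ from each other.

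The listed genes on either side of GDF15 stayed below the 1.5-fold call. PGPEP1, a peptidase gene, ends 4781 bases before the outermost annotated GDF15 start, and the start whose promoter is shown above lies farther from it. PGPEP1 had ratios to control of -0.27 in the siRNA 1 library and -0.13 in the siRNA 2 library. SSBP4, which starts 29688 bases past GDF15, had 0.21 and 0.05. A search for copies elsewhere in the genome within 2 mismatches over 50 bases found none for the 5 annotated GDF15 starts. It can miss copies whose mismatches are spaced apart. The genes whose pair of ratios lay nearest to that of GDF15, by Euclidean distance over the 2 log2 ratios to the shared control, were MIR3189, ACTA1 (skeletal muscle actin, distance 0.43), RP11-773D16.1 (0.76), HMOX1 (heme oxygenase, 1.10) and EPAS1 (a hypoxia-inducible factor, 1.15). ACTA1 stood at 1.20, 2.44 and 13.2 CPM with siRNA 1, siRNA 2 and control siRNA, so it passed the minimum mean of 5 CPM only through its control level. Likeness over 3 libraries rests on 2 ratios per gene.

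CDKN1A (ENSG00000124762, chr6:36644237-36655114, plus strand) encodes p21, the inhibitor of cyclin-dependent kinases through which p53 arrests the cycle. It stood at 39.4 CPM with siRNA 1 (95% interval 37.0 to 42.0), at 46.0 with siRNA 2 (43.3 to 48.7) and at 48.04 with control siRNA (45.4 to 50.8). The siRNA 2 and control intervals overlapped and the siRNA 1 interval lay below both. The log2 ratios to control were -0.28 and -0.06 (counting standard errors 0.061 and 0.058), neither of them called. CDKN1A and GDF15 had similar levels in control cells, and at 8.04 against 39.4 CPM with siRNA 1 they were well apart.

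MDM2 (ENSG00000135679, chr12:69201957-69239324, plus strand) was the most abundant of the 9 in every library. It stood at 79.1 CPM with siRNA 1, 78.9 with siRNA 2 and 77.8 with control siRNA. Relative to control its level was 101.6% in the siRNA 1 library (95% exact interval of the ratio 95.4% to 108%), and siRNA 2 gave 101.3% (95.1% to 108%), so counting error alone leaves room for a difference of several percent in either direction. The table gives 1 value for the gene, so the upstream start and the internal start whose promoter is shown above were not separated. Of 17 annotated MDM2 starts, 2 had a copy elsewhere in the genome within 2 mismatches, and whether tags came from such copies was not tested. The same search found none for the starts of the other 8 genes.

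ZMAT3 (ENSG00000172667, chr3:178677909-178790003, minus strand) encodes a zinc finger protein that binds RNA. It stood at 17.6 CPM with siRNA 1, 20.3 with siRNA 2 and 22.2 with control siRNA, with log2 ratios of -0.32 and -0.12 (counting standard errors 0.088 and 0.085). Its order of libraries, lowest with siRNA 1 and highest in control, was that of GDF15 and CDKN1A, but neither ratio was called.

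**Figure D2:**
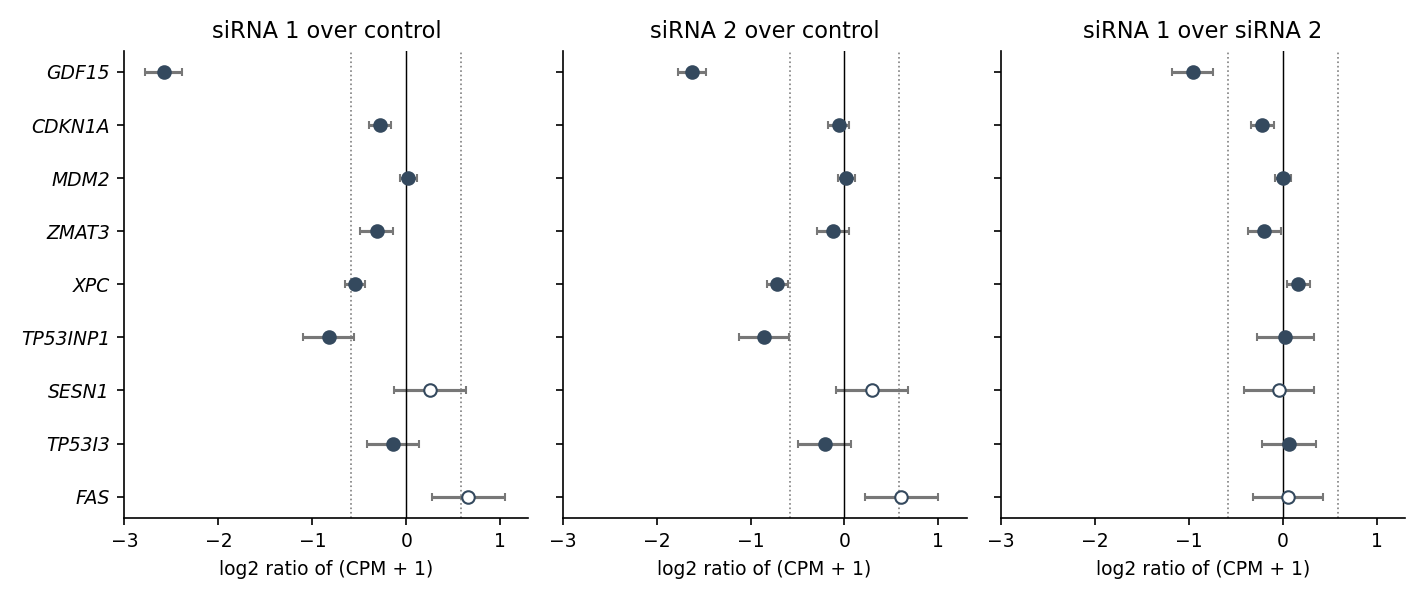
Log2 ratio of (CPM + 1) for each p53 target in the comparisons siRNA 1 over control, siRNA 2 over control and siRNA 1 over siRNA 2. Bars are 95% counting intervals, open points are genes averaging under 5 CPM, and dotted lines mark 1.5-fold; the first panels share the control library, and GDF15 alone passes the line in the last panel.

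XPC and TP53INP1 were lower in both knockdown libraries, by similar amounts with each siRNA. XPC (ENSG00000154767, chr3:14186647-14220121, minus strand), the protein that first recognises distorted DNA in nucleotide excision repair, stood at 44.4 CPM with siRNA 1 (41.8 to 47.0), 39.4 with siRNA 2 (37.0 to 41.9) and 65.4 with control siRNA (62.3 to 68.6). The control interval lay above both others. The log2 ratio was -0.72 with siRNA 2 (counting standard error 0.057), which was called, and -0.55 with siRNA 1 (0.055), just short of the 1.5-fold line. Unlike GDF15, XPC was higher with siRNA 1 than with siRNA 2, at 112.6% of the siRNA 2 level (103% to 123%), and that difference was not called.

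TP53INP1 (ENSG00000164938, chr8:95938200-95961606, minus strand), a stress-induced nuclear protein that also takes part in autophagy, stood at 5.00 CPM with siRNA 1 (4.16 to 5.96), 4.88 with siRNA 2 (4.05 to 5.83) and 9.64 with control siRNA (8.46 to 10.9). Both knockdown intervals overlapped each other and lay below the control interval. The log2 ratios were -0.83 and -0.86 (counting standard error 0.137 for each), and both were called. With knockdown levels at or below 5 CPM, TP53INP1 passed the minimum mean of 5 CPM through its control level. Nothing is therefore read from its calls. Relative to control, siRNA 1 left 51.9% (41.5% to 64.6%) and siRNA 2 left 50.6% (40.4% to 63.2%). With a pseudocount of 5 CPM the ratios were -0.55 and -0.57, both short of the call. TP53INP1 and GDF15 were called lower with both siRNAs, as were 0.899% of all genes.

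TP53I3 (ENSG00000115129, chr2:24300303-24308731, minus strand), a quinone oxidoreductase, stood at 5.92 CPM with siRNA 1 (5.00 to 6.95), 5.60 with siRNA 2 (4.71 to 6.61) and 6.64 with control siRNA (5.67 to 7.73), and all 3 intervals overlapped. FAM228B, which overlaps TP53I3 on the opposite strand, stood at 6.80, 7.56 and 12.4 CPM with siRNA 1, siRNA 2 and control siRNA, with log2 ratios of -0.78 and -0.64. The table keeps the strands apart, so these are separate values.

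SESN1 and FAS were the least abundant of the 9, below the filter in every library, and their counts were higher in the knockdown libraries. FAS (ENSG00000026103, chr10:90750414-90775542, plus strand), the death receptor for FAS ligand, stood at 2.16 CPM with siRNA 1 (54 tags), 2.04 with siRNA 2 (51 tags) and 1.00 with control siRNA (25 tags). The 95% Poisson intervals were 1.62 to 2.82, 1.52 to 2.68 and 0.647 to 1.48 CPM, so the control interval lay below both others. Relative to control, siRNA 1 gave 216% (95% exact interval of the ratio 132% to 362%) and siRNA 2 gave 204% (124% to 344%). On the log2(CPM + 1) scale the ratios were 0.66 and 0.60, past the 1.5-fold line, but FAS was not among the genes compared at the minimum mean of 5 CPM. FAS was thus the one target of the 9 whose knockdown intervals both lay above the control interval.

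SESN1 (ENSG00000080546, chr6:109305512-109416049, minus strand), a sestrin that restrains mTORC1, stood at 2.00 CPM with siRNA 1 (50 tags), 2.08 with siRNA 2 (52 tags) and 1.52 with control siRNA (38 tags). Its 3 intervals overlapped. Relative to control, siRNA 1 gave 132% (84.6% to 206%) and siRNA 2 gave 137% (88.4% to 214%), so at this depth no difference was detectable. UBAC2-AS1, an antisense RNA gene elsewhere in the table, had the same 3 values as SESN1.

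**Figure D3:**
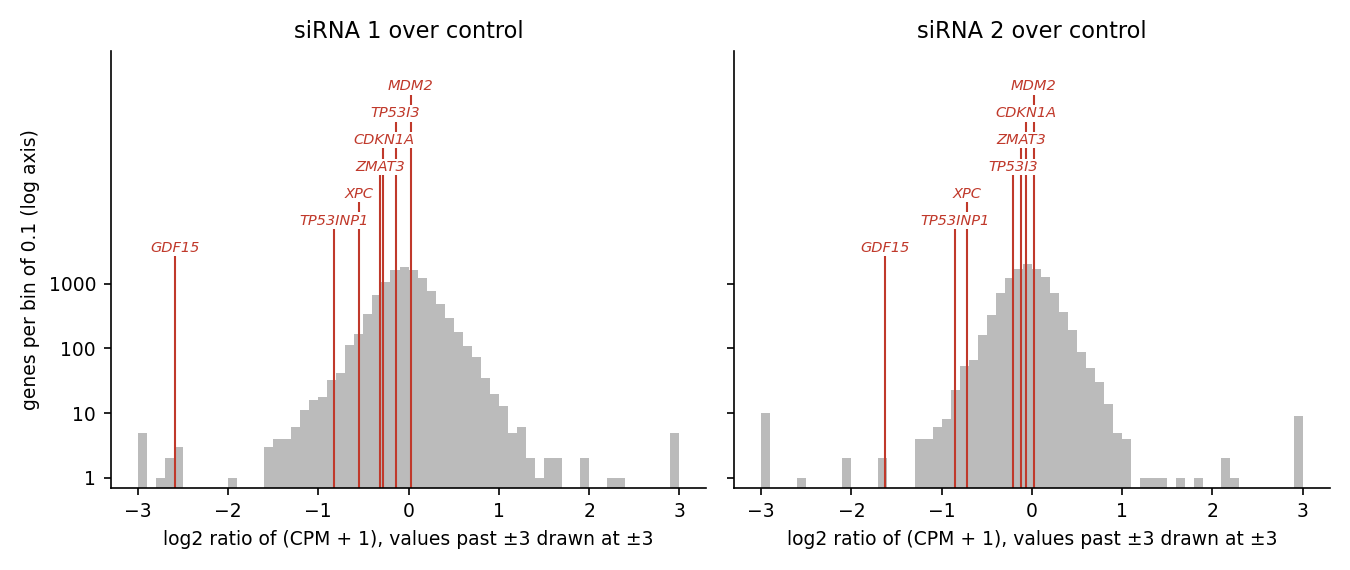
Log2 ratios of all 10788 genes that averaged 5 CPM or more (grey, genes per bin of 0.1 on a log axis), siRNA 1 over control on the left and siRNA 2 over control on the right, with the 7 p53 targets that passed the filter in red. GDF15 lies in the far lower tail of both, at -2.58 and -1.63, XPC and TP53INP1 lie at the lower shoulder, and MDM2 lies near the middle.

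The genes that regulate p53 were next set beside its targets. MDM4, the MDM2 relative that blocks p53 activity, stood at 15.9 CPM with siRNA 1, 16.5 with siRNA 2 and 22.7 with control siRNA, with log2 ratios of -0.49 and -0.44. Of 19 measured p53 regulators and relatives, none was called in either direction with either siRNA. Among all genes, 2.81% were called higher and 2.56% lower with siRNA 1, and 1.24% and 1.85% with siRNA 2. For 19 genes these shares leave few calls, so the count is not read as a result. Medians of the 19 were 0.01 and -0.05, beside -0.03 and -0.04 over all genes. The second was 0.02 at a minimum mean of 20 CPM, so the medians carry no direction. TP53BP1, a DNA break sensor, had ratios of -0.36 and -0.37, and RFWD2, a ubiquitin ligase for p53, 0.34 and 0.18. TP63 matched no symbol among the values used here, and TP73 stood at 0.68, 0.96 and 1.40 CPM.

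Other known p53 targets were counted from a list of 49 textbook genes, of which 45 were listed and 36 passed the filter. With siRNA 1, 1 was called higher and 1 lower, against 2.81% and 2.56% of all genes. With siRNA 2, none was called higher and 1 lower, against 1.24% and 1.85%. The median log2 ratios of the 36 were -0.06 with siRNA 1 and -0.01 with siRNA 2, close to the medians of all genes. Under both other scalings the second was 0.03, so it carries no direction. Of the 36, 17 (47.2%) were below control with both siRNAs, where 44.5% of all genes were, and 10 (27.8%) above with both, where 31.4% were.

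SESN2, the sestrin that ATF4 also induces, was the gene called lower with both siRNAs, at 14.4, 19.8 and 32.4 CPM with siRNA 1, siRNA 2 and control siRNA (log2 ratios -1.12 and -0.68). POLH, a translesion DNA polymerase, was called higher with siRNA 1, at 36.2, 28.0 and 21.04 CPM (0.75 and 0.40). PLK2, a stress-induced kinase, had 0.56 and 0.26, and AEN, an apoptosis-linked nuclease, 0.39 and 0.40. BTG1, an antiproliferative gene, had -0.53 and -0.48, and BBC3, which encodes the death effector PUMA, -0.42 and -0.38. None of these 4 was called.

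**Figure D4:**
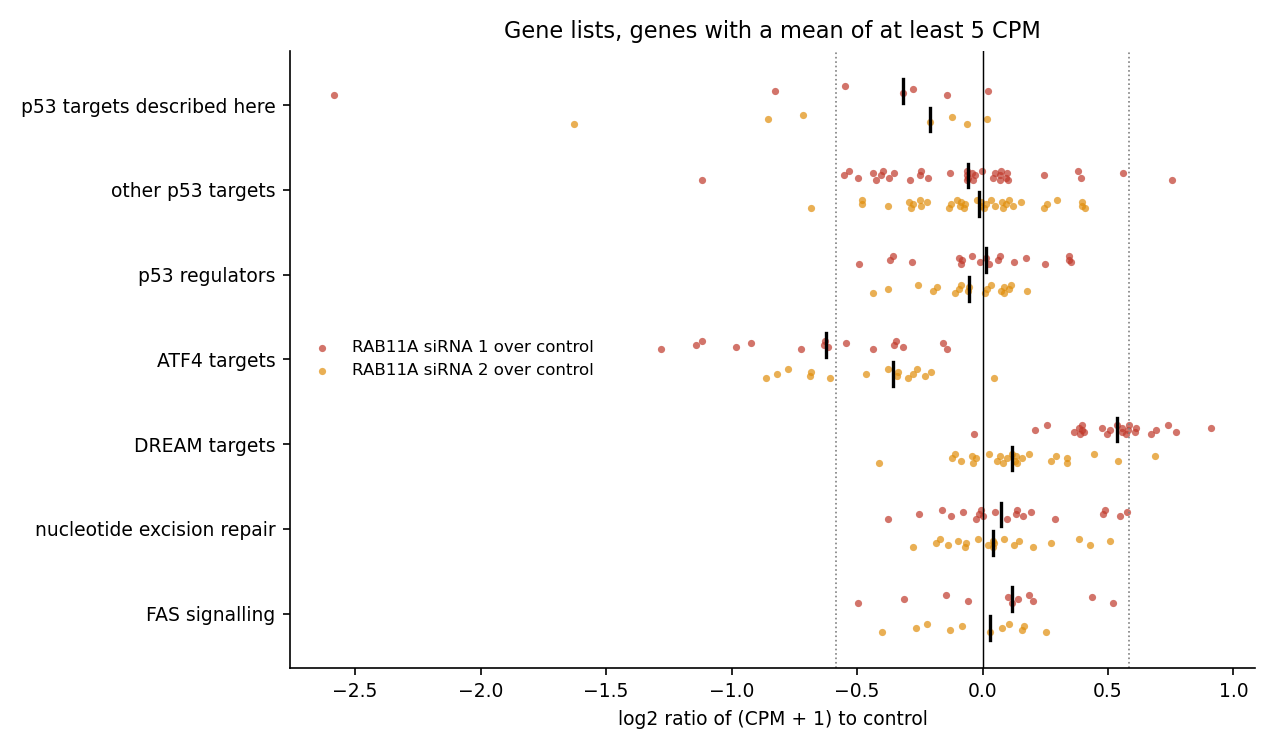
Log2 ratio to control of each gene averaging 5 CPM or more in 7 lists, with siRNA 1 in red above siRNA 2 in orange, black bars at the medians and dotted lines at 1.5-fold. The other p53 targets are centred near 0, the ATF4 targets lie mostly below 0 and the DREAM targets mostly above 0 with siRNA 1; all ratios use the same control library.

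Transcription factors other than p53 that are reported to act on GDF15 included 2 of the stress response. DDIT3 stood at 96.0 CPM with siRNA 1, 110.9 with siRNA 2 and 196.0 with control siRNA, and was called lower with both (log2 ratios -1.02 and -0.82). ATF4 stood at 273, 303 and 363 CPM (-0.41 and -0.26), and was not called. XBP1, the effector of another arm of the unfolded protein response, was called lower with siRNA 1 (-0.70) and had -0.45 with siRNA 2. ATF3 had -0.23 and -0.47, and EGR1 -0.50 and -0.04, neither called. KLF5 was called higher with siRNA 1 (0.66) and had 0.22 with siRNA 2. Over the 14 measured factors the medians were -0.20 and -0.16.

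Of 16 measured ATF4 targets, 9 were called lower with siRNA 1, where 2.56% of all genes were, and 6 with siRNA 2, where 1.85% were, and none was called higher. At 2-fold these counts were 3 with siRNA 1 and 0 with siRNA 2. The medians were -0.62 and -0.36, and 15 of 16 lay below control with both siRNAs, where 44.5% of all genes did. TRIB3, a pseudokinase, had -1.28 and -0.86, DDIT4, an inhibitor of mTORC1, -0.98 and -0.82, and SHMT2, a mitochondrial enzyme of serine metabolism, -0.14 and 0.05. Between the knockdown libraries the ATF4 targets had a median of -0.16 for siRNA 1 over siRNA 2, and GDF15 had -0.96. This ATF4 pattern was known from earlier results of these data, and SESN2 is on both lists. What part these factors have in the GDF15 level was not tested.

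Genes that act with the targets were counted in the same way. GDF15 is cut from its precursor by furin-type proteases and signals through GFRAL and RET, but of 6 such genes only the protease gene PCSK7 was listed, at ratios of 0.24 and 0.18. p21 acts on CDK2 and the DREAM repressor complex. Of 15 listed CDK inhibitors and their partners, 12 passed the filter. With siRNA 2 none of the 12 was called, where 1.24% of all genes were called higher and 1.85% lower. With siRNA 1, 2 were called higher, where 2.81% of all genes were. They were CDK2 (0.69, and 0.28 with siRNA 2) and CCND3, a D-type cyclin (0.63 and 0.38). At 2-fold neither was called. With a minimum mean of 1 CPM all 15 were compared. Then 3 were called higher with siRNA 1, and 1 lower with siRNA 2, where 407 and 294 of 12979 genes were. CDKN1B, which encodes p27, had 0.08 and -0.08.

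Of 25 measured DREAM targets, cell cycle genes that p21 lowers through DREAM, 7 were called higher with siRNA 1, where 2.81% of all genes were, and 1 with siRNA 2, where 1.24% were, and none was called lower. Under both other scalings the counts were 10 and 2, and at 2-fold both were 0. The medians were 0.54 and 0.12. RRM2, a ribonucleotide reductase subunit called with both, had 0.91 and 0.69. CDK1, the mitotic kinase, had 0.77 and 0.45, and CENPA, the centromeric histone, -0.03 and -0.41. For siRNA 1 over siRNA 2, all 25 ratios were above 0 with a median of 0.38. Over all 10788 genes, 5932 were above 0 with a median of 0.02. In the same comparison 2 of the 25 were called higher, where 0.899% of genes were. In that comparison CDKN1A stood at 85.8% of its siRNA 2 level (95% exact interval 78.7% to 93.5%). The part of CDKN1A in these values was not tested.

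For XPC, 20 other genes of nucleotide excision repair were measured and none was called with either siRNA. Over all genes, 2.81% were called higher and 2.56% lower with siRNA 1, and 1.24% and 1.85% with siRNA 2. At these shares few calls would fall among 20 genes, so nothing is read from the count. The medians of the 20 were 0.07 and 0.04, beside XPC ratios of -0.55 and -0.72. Under both other scalings 1 of the 20 was called higher with siRNA 1. RAD23B, which binds XPC, had 0.16 and -0.07, and LIG1, the DNA ligase that seals repair patches, 0.55 and 0.51.

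For FAS, 11 partners were measured and none was called with either siRNA. Of all genes, 2.81% were called higher and 2.56% lower with siRNA 1, and 1.24% and 1.85% with siRNA 2. A list of 11 is too short to read anything from that count. CASP8, the caspase that FAS activates, stood at 83.7, 74.5 and 87.2 CPM with siRNA 1, siRNA 2 and control siRNA, CFLAR, its inhibitor, had ratios of 0.44 and 0.16, and FADD, the adaptor, 0.12 and 0.17. FAS ligand matched no symbol among the values used here.

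Of 12 measured partners of sestrins and TP53INP1 in mTORC1 control and autophagy, none was called higher with either siRNA. With siRNA 1, 4 were called lower, where 2.56% of all genes were, and with siRNA 2, 2 were, where 1.85% were. At 2-fold these counts were 1 and 0. Both called with siRNA 2, SESN2 and DDIT4, are also ATF4 targets. MAP1LC3B, the autophagosome protein LC3B, had -0.71 and -0.49, and SQSTM1, an autophagy receptor, -0.64 and -0.29. SESN3 stood at 1.64, 1.28 and 1.40 CPM and TP53INP2 at 1.76, 2.84 and 2.92, both under the filter.

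Cell type markers were checked once. Of 8 squamous markers, TP63 and KRT5 among them, none was listed. Of 7 epithelial markers 6 were listed, and CDH1 was not. EPCAM was under the filter, at 4.28 CPM with siRNA 1, 3.72 with siRNA 2 and 4.20 with control siRNA. KRT18 and KRT8 stood at 475 and 358 CPM with siRNA 1, 394 and 329 CPM with siRNA 2, and 386 and 328 CPM with control siRNA. KRT19 was called higher with siRNA 1, at 175.4 CPM with siRNA 1, 151.6 with siRNA 2 and 109.3 with control siRNA (log2 ratios 0.68 and 0.47), and KRT7 had -0.18 and -0.37, not called. Of 10 markers of other cell types, 7 were not listed, the collagen genes COL1A1 and COL1A2 reached at most 1.12 and 2.28 CPM, and CD68, a lysosomal protein also made outside macrophages, stood at 21.1, 31.4 and 45.2 CPM.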

How the data were processed

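CAGE tags had been counted per gene and strand in 3 libraries of EBC-1 cells, 1 for each siRNA group, and the authors deposited them as CPM, per the file name and header. Per the submitters' processing notes the build was hg19 and the tools included BWA and HISAT2; the sources used here do not give roles, versions, the counting tool or the annotation. Every listed gene reached at least 0.52 CPM in 1 library. Whole tags were recovered from the deposited CPM values: 100.0% of values were whole multiples of 0.04 CPM within 0.005. The total was estimated at 24999950 tags for each library, the median of the searched totals that fitted equally well. Tags summed over genes came to 25204585, 25137457 and 25174787 with siRNA 1, siRNA 2 and control siRNA, more than that total. With genes of identical values counted once, the sums were 24164331, 24074641 and 24147376, below it. How all 3 libraries came to the same total is not stated in the sources; if tags were scaled or sampled to it, the intervals describe the deposited tags and not the sequenced ones.

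Ratios used a pseudocount of 1 CPM and a minimum mean of 5 CPM, with calls at 1.5-fold; folds on this scale understate changes of low genes. Intervals are 95% exact Poisson (levels) and Clopper-Pearson (percent of control). An exact two-sided binomial test of tags with Benjamini-Hochberg adjustment at 0.05, which compares libraries and not conditions, was an alternative and called 2518 genes higher and 3143 lower with siRNA 1, 1983 and 3230 with siRNA 2, and 2312 and 1656 for siRNA 1 over siRNA 2. The members and the 13 gene lists were chosen with earlier results of these data known. Named genes were the targets, MDM4, RAB11A, genes at the same loci or with identical values, the 5 nearest patterns to GDF15, family relatives, and up to 3 highest and 3 lowest per list. SQSTM1, EGR1, TP73, EPCAM and the collagen genes were chosen for naming after looking at their values. Some genes are not reported here and were left out of the lists. The calling step was tested on simulated tags. Loci came from GENCODE lifted to GRCh37, where the file's build is hg19; promoters and microRNAs came from RefSeq. Start copies were searched with minimap2 2.31, which can miss copies with spaced mismatches. Scalings used edgeR 4.0.16 in R 4.3.3; the rest used Python 3.11.15 with scipy 1.17.1, pandas 2.3.3, numpy 2.4.6, matplotlib 3.10.9, samtools 1.23.1 and pysam 0.24.0.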

Additional observations from a re-analysis of the deposited data

How the results depend on the processing

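Each group has 1 library, so no result has a replicate check, no library could be left out, and how far cultures differ is unknown. No paired analysis was possible because each group has 1 library. GDF15 was called lower than control in every alternative run, with ratios from -2.73 to -2.16 with siRNA 1 and from -1.68 to -1.43 with siRNA 2. Its ratio of siRNA 1 to siRNA 2 ran from -1.04 to -0.73 and, at -0.96, was not called at 2-fold. A pseudocount of 5 CPM gave the end nearest 0 by construction. Filters cannot alter a gene's own ratio. Of the 129 values of the 9 targets under the other pseudocounts, scalings and the ratio of tags, 123 moved by less than their 95% counting interval, and the 6 that moved more all came from a pseudocount of 5 CPM. Called targets kept their direction wherever they were compared. TP53INP1 was no longer called with that pseudocount, neither TP53INP1 nor XPC was called at 2-fold, and TP53INP1 and TP53I3 were not among the genes compared at a minimum mean of 20 CPM.

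Counts over all genes, given as higher and lower, moved most. With a pseudocount of 5 CPM they were 191 and 161 with siRNA 1, 86 and 115 with siRNA 2, and 41 and 48 for siRNA 1 over siRNA 2. With a minimum mean of 20 CPM, where fewer genes were tested, they were 188 and 151, 75 and 104, and 43 and 31. Without any filter, siRNA 1 had 420 lower, siRNA 2 had 206 and 316, and siRNA 1 over siRNA 2 had 154 and 147, the last with 132 lower at a minimum mean of 1 CPM. At 2-fold they were 40 and 56, 21 and 29, and 18 and 20. By the binomial test of tags they were 2518 and 3143, 1983 and 3230, and 2312 and 1656. Counting genes with identical values once, an alternative chosen after seeing the data, moved none of them by over 1.5 times.

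Among the other p53 targets, higher calls with siRNA 1 were 2 under TMM and under median-ratio scaling and 0 at 2-fold, and lower calls with siRNA 2 were 0 at 2-fold. Without a filter, or with one at 1 CPM, siRNA 2 had 1 higher call. The binomial test called 5 higher and 14 lower with siRNA 1 and 7 and 11 with siRNA 2. The binomial test counts any difference beyond tag sampling, so its calls do not separate conditions from cultures. Depth limits SESN1 and FAS, which rest on 25 to 54 tags per library.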
